A study of Homo sapiens with 16 samples.

Results

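This account follows 10 genes of the interleukin-1 (IL-1) family and of the inflammasome through the response of 2 human acute myeloid leukaemia (AML) cell lines to retinoic acid and to an inhibitor of the CoREST complex. The genes were IL1A, IL1B, IL18, IL1RN, IL1R1, IL1R2, NLRP3, NLRC4, PYCARD and CASP1. They were taken by gene symbol from a deposited count table of 60603 genes, in which all 10 were found. The 10 genes were chosen with earlier results of these data known. RNA-seq was done on SKNO-1, a myeloid line with the RUNX1-RUNX1T1 fusion, and on U-937, a monocyte-like line. SKNO-1 was grown with GM-CSF at 10 ng/mL and U-937 without it, so origin and medium cannot be told apart. Treatment lasted 24 h and was DMSO (the solvent alone), ATRA at 0.1 µM, Corin at 0.1 µM, or the combination with each at 0.1 µM. ATRA is all-trans retinoic acid, the ligand of the retinoic acid receptors. Corin blocks 2 enzyme activities of CoREST, histone demethylation by LSD1 and deacetylation by HDAC1/2. There were 2 libraries in each of the 8 groups. The labels do not say whether these came from separate cultures, so p-values measure only the spread between libraries, which may be technical.

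IL-1β and IL-18 are made as inactive precursors. A sensor protein such as NLRP3 or NLRC4 detects a danger signal or a bacterial protein, recruits the adaptor ASC (encoded by PYCARD) and activates caspase-1, which cuts both precursors and gasdermin D. Secreted IL-1α and IL-1β act on the receptor IL1R1, while the antagonist IL1RN blocks that receptor and IL1R2 is a decoy without a signalling domain. In monocytes and macrophages the RNA of IL1B and NLRP3 is the priming step that precedes inflammasome activation. RNA levels say nothing on cleavage or secretion, which were not measured here.

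Depth per library was 32.8 to 37.8 M counts in SKNO-1 and 28.4 to 37.6 M in U-937. The identity genes matched the labels: RUNX1T1 had at most 1 count in each U-937 library, and HOXA9 and HOXA10 had 0 counts in every SKNO-1 library. Of 10 markers of T, B, erythroid, epithelial and fibroblast cells, 8 had at most 4 counts in every library, and COL1A1 had up to 26. The DMSO libraries of SKNO-1 stood apart from each other. The SD of the log2 difference between both libraries was 0.362 over genes, against 0.110 to 0.211 in the other groups, and the difference correlated with GC content (Pearson r = 0.809 over 9087 genes). Levels below are in CPM (counts per M counts, on library sizes scaled over all 16 libraries, M being the mega prefix), and comparisons between genes are in the authors' TPM, which is per length. Fold changes (log2) were tested in edgeR by quasi-likelihood F tests, p was adjusted over all genes by the Benjamini-Hochberg method, and a gene was called changed at an adjusted p under 0.05. The bulk RNA cannot tell more cells of a type from more RNA per cell.

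Promoter sequence is shown for a cytokine (IL1B), the antagonist (IL1RN) and both sensors (NLRP3 and NLRC4), whose RNA moved together or apart under the agents. The sequences are RefSeq's on GRCh38.p14, 5′ to 3′ on the gene's strand, restricted to bases outside annotated exons within the 250 bases before a start site. Capitals mark matches to 5 motifs searched on both strands in 35116 RefSeq windows of this length: NF-kB (GGG, any 5 bases, then CC, in 54.4% of windows), C/EBP TTGCNNAA (9.05%), AP-1 TGANTCA (6.57%), PU.1 GAGGAAGT (2.17%) and the DR5 retinoic acid element (0.0114%). RefSeq entries matched 8 of the 10 genes, with 17 windows, and not IL18 or CASP1. In the bases shown, IL1B has a C/EBP match 215 to 208 bases before its start and NLRP3 an NF-kB match at 183 to 174. IL1RN has an AP-1 match at 223 to 217 and an NF-kB match at 117 to 108, and NLRC4 a C/EBP match at 140 to 133. IL1RN and NLRC4 also have windows that are not shown. In exon bases of the window shown, IL1RN has NF-kB matches at 78 to 69 and 45 to 36. Another IL1RN window and another NLRC4 window each have an NF-kB match at 97 to 88. None of the 17 windows holds a DR5 or PU.1 match in these letters. A match is a run of letters and no evidence of binding.
IL1B, chr2:112836817-112837029, minus strand: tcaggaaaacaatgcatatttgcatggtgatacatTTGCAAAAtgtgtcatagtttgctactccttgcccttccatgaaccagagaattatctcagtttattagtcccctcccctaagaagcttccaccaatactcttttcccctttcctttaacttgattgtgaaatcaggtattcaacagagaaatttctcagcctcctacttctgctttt
IL1RN, chr2:113117721-113117892, plus strand: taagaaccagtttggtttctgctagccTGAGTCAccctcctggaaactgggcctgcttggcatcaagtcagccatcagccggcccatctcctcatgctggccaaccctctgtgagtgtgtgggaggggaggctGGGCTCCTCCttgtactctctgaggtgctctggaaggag
NLRP3, chr1:247415923-247416155, plus strand: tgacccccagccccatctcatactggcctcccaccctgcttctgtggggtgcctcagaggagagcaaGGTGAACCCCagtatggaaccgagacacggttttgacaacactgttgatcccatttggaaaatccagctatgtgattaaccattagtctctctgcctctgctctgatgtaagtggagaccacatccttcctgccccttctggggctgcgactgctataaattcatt
NLRC4, chr2:32265744-32265993, minus strand: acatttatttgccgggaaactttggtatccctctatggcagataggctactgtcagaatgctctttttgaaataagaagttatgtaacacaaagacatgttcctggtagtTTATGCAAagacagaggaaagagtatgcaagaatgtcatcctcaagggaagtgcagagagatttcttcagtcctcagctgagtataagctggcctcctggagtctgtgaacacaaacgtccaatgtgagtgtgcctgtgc

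Positions are those of GENCODE 44 on GRCh38. IL1A (chr2:112773925-112784493), IL1B (chr2:112829751-112836816) and IL1RN (chr2:113099315-113134016) share a cytokine cluster on chromosome 2. IL1R2 (chr2:101991960-102028544) and IL1R1 (chr2:102064544-102179874) share a receptor cluster on the same chromosome, where NLRC4 (chr2:32224453-32265732) lies apart. IL18 (chr11:112143253-112164096) and CASP1 (chr11:105025397-105035250) are on chromosome 11, NLRP3 (chr1:247416156-247449108) is on chromosome 1 and PYCARD (chr16:31201486-31203450) is on chromosome 16. Every CASP1 value was a fraction, which arises where reads are divided among similar genes, so CASP1 values are model estimates. Which genes share its reads was not tested, and the neighbour CARD16 may be 1 of them.

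Untreated, the lines carried opposite cytokine profiles. SKNO-1 held much IL1B, little IL18 and no detected IL1RN, whereas U-937 held little IL1B, much IL18 and some IL1RN. IL1B was at 27.3 and 26.9 CPM in the DMSO libraries of SKNO-1 and at 2.03 and 2.82 CPM in those of U-937. IL18 was at 0.390 and 0.451 CPM in SKNO-1 and at 25.5 and 26.6 CPM in U-937. The groups did not overlap for either cytokine, and on the log2 scale U-937 differed from SKNO-1 by -3.49 ± 0.13 (SE, adjusted p = 2.8e-14) for IL1B and by 5.94 ± 0.19 (adjusted p = 2.33e-15) for IL18. IL1RN had 94 counts in each U-937 library and 0 in both of SKNO-1, which allows up to 0.0436 CPM there (3 counts over the group, counting error only). The line difference passed the test for 8 of 9 genes tested, 4 higher and 4 lower in U-937, where 64.8% of all 19872 genes passed, 31.7% higher and 33.1% lower. IL1RN passed the low-count filter only through U-937 and IL1A only through its combination libraries, and without these 2 genes 7 of 7 passed, 3 higher and 4 lower. PYCARD (2.34 ± 0.18, adjusted p = 8.28e-10) and NLRP3 (1.15 ± 0.11, adjusted p = 3.66e-08) were higher in U-937, and IL1R1 (-2.94 ± 0.30, adjusted p = 4.9e-08) and CASP1 (-0.50 ± 0.11, adjusted p = 0.000565) were lower. NLRC4 was lower by a small step (-0.44 ± 0.15, adjusted p = 0.0177), and this call was lost with DESeq2 (adjusted p = 0.0515), with library totals only (0.103), and without SKNO-1 DMSO replicate 1 (0.101), U-937 DMSO replicate 1 (0.102) or U-937 DMSO replicate 2 (0.082).

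Per length, the most abundant of these RNAs in untreated U-937 was PYCARD at 38.7 ± 0.0919 TPM (SD, n = 2), followed by IL18 at 24.6 ± 1.31 TPM, NLRP3 at 11.2 ± 0.530 TPM and CASP1 at 10.6 ± 0.658 TPM. NLRP3 and CASP1 did not differ beyond their spread. IL1RN (2.24 ± 0.120 TPM) and IL1B (1.96 ± 0.594 TPM) came next and overlapped, NLRC4 was at 1.06 ± 0.00707 TPM, and IL1R1, IL1R2 and IL1A were below 0.5 TPM. In untreated SKNO-1 the order was IL1B at 15.9 ± 3.54 TPM, CASP1 at 8.33 ± 2.28 TPM, PYCARD at 5.87 ± 0.177 TPM, NLRP3 at 3.95 ± 0.509 TPM and NLRC4 at 1.11 ± 0.240 TPM, with the other 5 below 1 TPM. With both agents in U-937, IL18 led at 75.9 ± 2.24 TPM, ahead of PYCARD at 53.0 ± 7.72 TPM. NLRC4 (24.8 ± 1.16 TPM), NLRP3 (23.9 ± 2.01 TPM) and CASP1 (23.9 ± 0.156 TPM) then stood level within their spread.

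**Figure D1:**
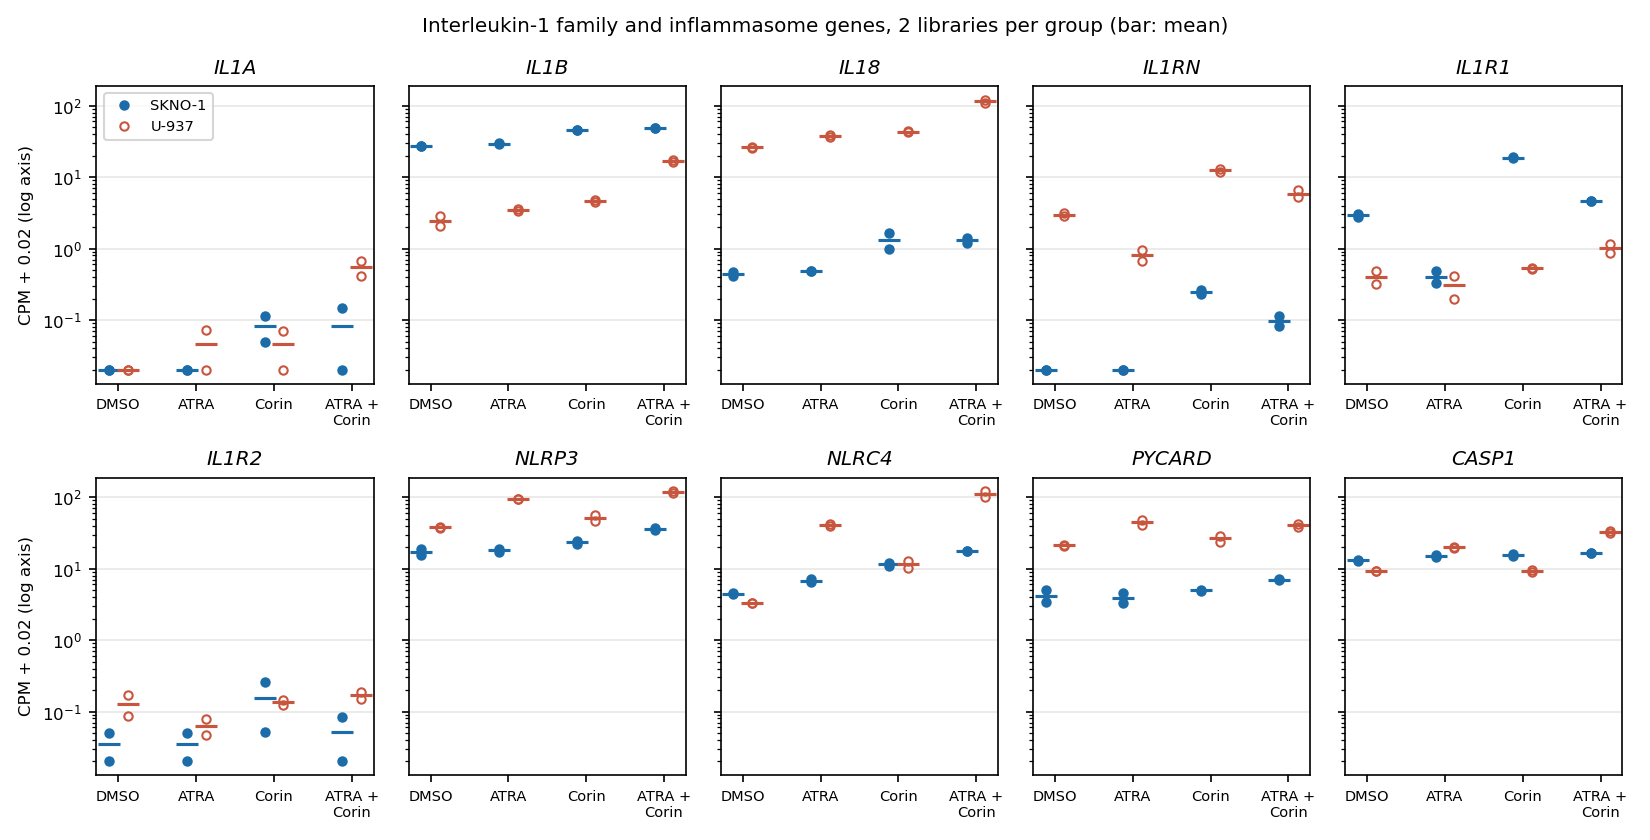
Level of each gene in every library, as CPM plus 0.02 on a log axis, by treatment, with filled points for SKNO-1, open points for U-937 and a bar at the mean of 2 libraries. IL1B lies higher in SKNO-1 and IL18 and IL1RN higher in U-937 under every treatment, and NLRC4 of U-937 climbs from 3.29 CPM with DMSO to 111 CPM with both agents.

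Low counts kept some genes out of the tests. In SKNO-1, 7 of 10 genes passed edgeR's filter, without IL1A, IL1RN and IL1R2. In U-937, 9 of 10 passed, without IL1R2, and IL1A passed only through the libraries with both agents, so it had to differ and is described by its counts. The 3 treatment groups of a line were compared with the same DMSO libraries, so their fold changes share that control.

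In U-937 the cytokine genes responded weakly to each agent and strongly to both. IL1B, the precursor of IL-1β, was at 2.03 and 2.82 CPM with DMSO, 3.33 and 3.55 with ATRA, 4.69 and 4.46 with Corin, and 16.5 and 17.5 with both. The 4 groups did not overlap and stood in that order. The log2 fold change was 0.93 ± 0.19 with Corin (adjusted p = 0.00183) and 2.82 ± 0.19 with both agents (adjusted p = 3.75e-12). The ATRA step of 0.51 ± 0.20 (adjusted p = 0.0428) was lost with DESeq2 (adjusted p = 0.122), library totals only (0.0855) and no low-count filter (0.0725). It was also lost without DMSO replicate 1 (0.374), either ATRA library (0.0932 and 0.188) or either library with both agents (0.0517 and 0.0546). The Corin call of IL1B was lost without DMSO replicate 1 (adjusted p = 0.0613).

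IL18, whose precursor protein is already present in resting monocytes, followed the same order at a higher level. It was at 25.5 and 26.6 CPM with DMSO, 38.5 and 36.1 with ATRA, 42.8 and 43.7 with Corin and 108 and 122 with both. No group overlapped another. The log2 fold changes were 0.52 ± 0.10 with ATRA (adjusted p = 0.000276), 0.74 ± 0.10 with Corin (adjusted p = 1.58e-05) and 2.14 ± 0.10 with both (adjusted p = 1.13e-14). IL1A, the precursor of IL-1α, had 0 and 0 counts with DMSO, 2 and 0 with ATRA, 2 and 0 with Corin and 23 and 12 with both. Against the floor of 3 counts over the DMSO group it was at least 11.3-fold higher with both agents. Against ATRA alone the ratio of scaled counts was 19.1 (exact 95% interval 4.92 to 164, counting error only).

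IL1RN, the receptor antagonist, moved in opposite directions under the single agents in U-937. It was at 2.84 and 3.08 CPM with DMSO, fell to 0.640 and 0.939 with ATRA, rose to 13.0 and 11.8 with Corin and was at 5.17 and 6.58 with both. The log2 fold change was -1.91 ± 0.25 with ATRA (adjusted p = 1.04e-06), 2.07 ± 0.20 with Corin (adjusted p = 3.59e-08) and 0.99 ± 0.20 with both (adjusted p = 0.000145). In TPM, IL1RN rose less with both agents, from 2.235 ± 0.120 with DMSO to 2.935 ± 0.502 (SD, n = 2). Adding ATRA to Corin thus lowered it by a log2 change of -1.08 ± 0.18 (adjusted p = 2.24e-05), while IL1B went up by 1.89 ± 0.17 (adjusted p = 1.63e-09) and IL18 by 1.41 ± 0.10 (adjusted p = 1.94e-11) in the same comparison.

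The receptors were low in U-937. IL1R1 had 10 and 14 counts with DMSO, 15 and 6 with ATRA, 20 and 16 with Corin and 30 and 35 with both. The rise with both agents (1.40 ± 0.47, adjusted p = 0.0112) was lost with DESeq2 (0.0998), without DMSO replicate 1 (0.104) and without combination replicate 2 (0.082). In TPM, which weighs transcript length, IL1R1 was at 0.215 ± 0.120 with DMSO and 0.240 ± 0.0424 with both agents, so the rise in counts was not seen there. IL1R2 had between 1 and 6 counts in each U-937 library, too few to test.

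Among the sensors, NLRC4 had a wider response than NLRP3 in U-937. NLRC4, which with NAIP proteins detects bacterial flagellin and secretion-system parts, was at 3.26 and 3.31 CPM with DMSO, 42.1 and 39.0 with ATRA, 12.7 and 10.1 with Corin and 101 and 121 with both. All 4 groups were separate. The log2 fold change was 3.62 ± 0.14 with ATRA (12.3-fold, adjusted p = 1.48e-15), 1.80 ± 0.15 with Corin (3.49-fold, adjusted p = 4.3e-09) and 5.08 ± 0.15 with both (33.9-fold, adjusted p = 9.23e-19). NLRP3, the sensor of ion fluxes and crystals, was at 38.3 and 37.4 CPM with DMSO, 94.7 and 93.2 with ATRA, 55.7 and 46.0 with Corin and 114 and 120 with both. It rose by 1.31 ± 0.10 with ATRA (adjusted p = 4.43e-10), 0.43 ± 0.10 with Corin (adjusted p = 0.00639) and 1.63 ± 0.10 with both (adjusted p = 1.83e-12). In TPM, NLRP3 with ATRA (24.28 and 21.34) and with both agents (25.33 and 22.49) overlapped. The Corin call of NLRP3 was lost without DMSO replicate 2 (0.0704) and without Corin replicate 1 (0.149).

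The adaptor and the protease passed the test with ATRA in U-937, and with Corin they did not. PYCARD was at 21.6 and 20.7 CPM with DMSO, 41.2 and 47.7 with ATRA, 29.0 and 23.8 with Corin and 42.7 and 38.8 with both. ATRA alone and both agents overlapped in CPM, and their difference of -0.12 ± 0.11 did not pass the test (adjusted p = 0.413). In TPM these groups did not overlap, at 66.73 and 69.55 with ATRA and 58.43 and 47.51 with both. Against DMSO, PYCARD rose by 1.07 ± 0.12 with ATRA (adjusted p = 8.2e-08) and 0.95 ± 0.12 with both (adjusted p = 1.52e-07), and the Corin value of 0.33 ± 0.12 missed the threshold (adjusted p = 0.0712). That value passed without Corin replicate 2 (0.0195) or either combination library (0.048 and 0.0485). CASP1 was at 9.34 and 9.27 CPM with DMSO, 19.7 and 20.1 with ATRA, 9.47 and 8.86 with Corin and 31.9 and 33.4 with both. DMSO and Corin overlapped (-0.02 ± 0.12, adjusted p = 0.954). CASP1 rose by 1.10 ± 0.12 with ATRA (adjusted p = 9.09e-08) and by 1.81 ± 0.12 with both (adjusted p = 3.16e-12).

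In counts, ATRA changed 7 of 9 genes tested in U-937 (7 of 8 without IL1A), 6 higher and 1 lower, where 41.8% of 17717 genes passed, 21.7% higher and 20.1% lower. Corin changed 5 of 9 (5 of 8 without IL1A), all higher, where 12.9% of genes passed in either direction, 8.55% higher and 4.4% lower. With both agents 9 of 9 were higher, or 8 of 8 without IL1A, where 65.3% of genes passed, 33.1% higher and 32.2% lower. The median log2 fold change of the 8 genes other than IL1A was 1.72 with both agents, against 0.03 over all genes tested. Both agents against ATRA alone gave 8 of 9 higher, or 7 of 8 without IL1A (47.4% of genes passed, 22.5% higher and 24.8% lower). Both against Corin alone gave 7 higher and 1 lower of 9, or 6 higher and 1 lower of 8 without IL1A (60.5% passed, 29.9% higher and 30.6% lower).

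**Figure D2:**
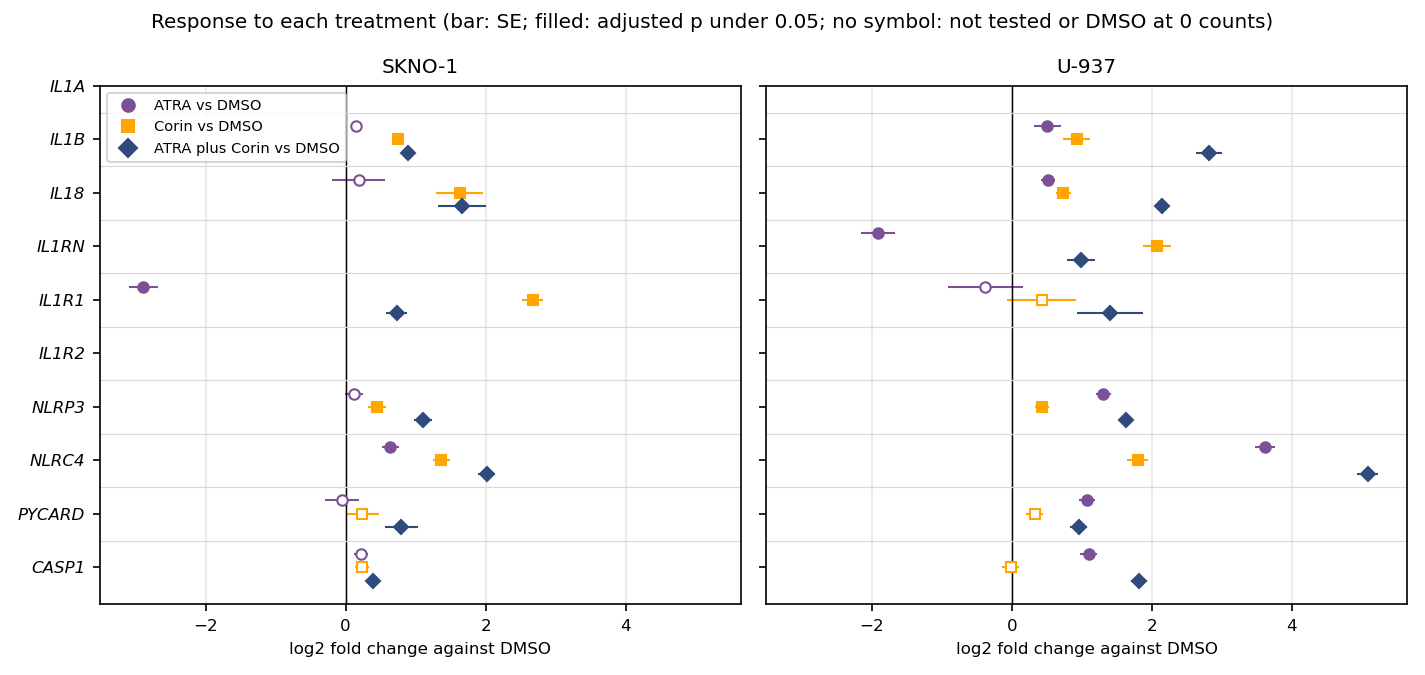
Log2 fold change against DMSO with its SE for ATRA, Corin and both agents in SKNO-1 and U-937, with filled symbols where the adjusted p was under 0.05. IL1R1 of SKNO-1 (-2.89 with ATRA, 2.67 with Corin) and IL1RN of U-937 (-1.91 and 2.07) have symbols on both sides of 0.

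In SKNO-1 the sharpest movement was in the receptor IL1R1. It was at 2.79 and 3.04 CPM with DMSO, 0.461 and 0.305 with ATRA, 18.3 and 18.8 with Corin and 4.65 and 4.69 with both. All 4 groups were separate, with ATRA lowest and Corin highest. The log2 fold change was -2.89 ± 0.21 with ATRA (adjusted p = 0.000126), 2.67 ± 0.15 with Corin (adjusted p = 1.59e-05) and 0.73 ± 0.15 with both (adjusted p = 0.00517). Adding ATRA to Corin lowered it by a log2 change of -1.94 ± 0.14 (adjusted p = 0.000172). IL1R2 had at most 8 counts in any SKNO-1 library.

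The cytokine genes of SKNO-1 rose with Corin and were little different when ATRA was added. IL1B was at 27.3 and 26.9 CPM with DMSO, 29.8 and 28.6 with ATRA, 46.1 and 45.0 with Corin and 49.0 and 48.2 with both. Its log2 fold change was 0.15 ± 0.07 with ATRA (adjusted p = 0.344), 0.75 ± 0.07 with Corin (adjusted p = 0.00017) and 0.89 ± 0.07 with both (adjusted p = 5.19e-05). Both agents against Corin gave 0.14 ± 0.07 (adjusted p = 0.213), which passed with the GC trend removed (0.0354) and without either DMSO library (0.0338 and 0.0339). IL18 had 13 and 16 counts with DMSO, 15 and 17 with ATRA, 55 and 31 with Corin and 44 and 39 with both. It rose by 1.63 ± 0.34 with Corin (adjusted p = 0.00696, and 0.0512 without Corin replicate 1) and by 1.66 ± 0.34 with both (adjusted p = 0.00484). IL1RN had 0 counts in all 4 libraries with DMSO or ATRA, 7 and 8 with Corin and 3 and 2 with both, so it was at least 5.24-fold higher with Corin than with DMSO. IL1A had 0 counts in the libraries with DMSO or ATRA, 1 and 3 with Corin and 4 and 0 with both.

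Of the inflammasome genes of SKNO-1, NLRC4 moved most. NLRC4 was at 4.53 and 4.40 CPM with DMSO, 6.49 and 7.05 with ATRA, 10.8 and 12.1 with Corin and 17.5 and 17.4 with both. It rose by 1.36 ± 0.12 with Corin (adjusted p = 0.00013) and 2.01 ± 0.12 with both (adjusted p = 1.44e-05). Its rise with ATRA (0.64 ± 0.12, adjusted p = 0.0187) was lost without either ATRA library (0.108 and 0.202) and without either combination library (0.0607 and 0.0601). NLRP3 was at 18.9 and 15.3 CPM with DMSO, 17.2 and 19.0 with ATRA, 24.2 and 22.3 with Corin and 36.6 and 34.8 with both. It rose by 1.11 ± 0.13 with both agents (adjusted p = 0.000315). The Corin value of NLRP3 (0.44 ± 0.13, adjusted p = 0.0275) was lost without either ATRA (0.0533 and 0.0532), Corin (0.16 and 0.0831) or combination library (0.0556 and 0.0563).

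PYCARD and CASP1 of SKNO-1 passed the test against DMSO only with both agents. PYCARD was at 5.01 and 3.35 CPM with DMSO, 3.23 and 4.60 with ATRA, 4.79 and 5.07 with Corin and 7.15 and 6.89 with both. The DMSO group overlapped both the ATRA group and the Corin group. The rise with both agents (0.80 ± 0.24, adjusted p = 0.0247) was lost without either Corin (0.0513 and 0.0515) or combination library (0.108 and 0.0893). CASP1 was at 13.0 and 13.3 CPM with DMSO, 14.5 and 15.4 with ATRA, 16.1 and 14.8 with Corin and 16.4 and 16.7 with both. Its rise with both agents (0.38 ± 0.10, adjusted p = 0.0127) was lost with DESeq2 (0.0637) and without either combination library (0.0691 and 0.0829).

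In counts, ATRA changed 2 of 7 genes tested in SKNO-1, NLRC4 higher and IL1R1 lower, where 6.76% of 17479 genes passed, 2.96% higher and 3.79% lower. That count was 1 without either ATRA or either combination library. The share over all genes was 29.1% without DMSO replicate 1, 24.7% without DMSO replicate 2, 3.18% and 3.07% without ATRA replicates 1 and 2, and 4.47% to 4.55% without a Corin or combination library. Corin changed 5 of 7, all higher, where 37.9% of genes passed, 20.5% higher and 17.3% lower. Fewer of the 7 passed without Corin replicate 1, where fewer of all genes passed too. With both agents 7 of 7 were higher, where 46.7% passed, 24.7% higher and 22.0% lower, with a median log2 fold change of 0.89 against 0.05 over all genes. Both agents against ATRA alone gave 6 of 7 higher (44.8% passed, 23.0% higher and 21.8% lower). Both against Corin alone gave NLRC4 (0.65 ± 0.11, adjusted p = 0.012) and NLRP3 (0.67 ± 0.13, adjusted p = 0.0163) higher and IL1R1 lower, where 10.4% passed, 4.82% higher and 5.6% lower. This number of 3 calls became 5 when either DMSO library was left out (38.9% of all genes passed in each case), and 1 without either Corin or either combination library, where the calls of NLRC4 and NLRP3 were lost and 2.19% to 2.56% of all genes passed. With the GC trend removed, 1499 genes were higher and 1054 lower over all genes, against 843 and 979.

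The authors' deposited table of their own DESeq2 comparisons against DMSO gave an adjusted p at or above 0.05 for 9 of the calls made here in these 6 comparisons, and called none of the 10 genes that was not called here. In the authors' deposited table the adjusted p with both agents in SKNO-1 was 0.0699 for PYCARD, 0.138 for IL1R1, 0.279 for CASP1 and 0.062 for IL18. The authors' deposited table gave 0.0806 for IL18 and 0.136 for NLRP3 with Corin in SKNO-1, and 0.367 for NLRC4 with ATRA there. In U-937 the authors' deposited table gave 0.278 for IL1B with ATRA and 0.121 for IL1R1 with both agents.

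Whether both agents together did more than the sum of their single log2 effects was tested as an interaction within each line. In U-937 the measured combination exceeded the sum for 3 of 9 genes (3 of 8 without IL1A), where 23.4% of all genes departed in either direction, 8.09% upward and 15.3% downward. The excess was 1.39 ± 0.26 for IL1B (adjusted p = 0.000337), 0.89 ± 0.14 for IL18 (adjusted p = 4.58e-05) and 0.74 ± 0.17 for CASP1 (adjusted p = 0.00204), on the log2 scale. These are the 2 cytokine substrates and the protease that cuts them. IL1RN (0.83 ± 0.31, adjusted p = 0.0544) and PYCARD (-0.45 ± 0.16, adjusted p = 0.051) lay just outside the threshold in opposite directions. NLRC4 (-0.34 ± 0.19, adjusted p = 0.216) and NLRP3 (-0.11 ± 0.14, adjusted p = 0.668) did not pass. The count was 5 without combination replicate 1. PYCARD passed in 5 alternatives: library totals only (0.0321), no low-count filter (0.0374), and without ATRA replicate 1 (0.0392), Corin replicate 2 (0.0104) or combination replicate 1 (0.0367). IL1RN passed without ATRA replicate 2 (0.037) or combination replicate 1 (0.0218).

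In SKNO-1 edgeR called 0 of 7 departures, where 0.463% of genes departed (0.315% upward and 0.149% downward), with 2 genes at an unadjusted p under 0.05: IL1R1 (0.95 ± 0.26, adjusted p = 0.198) and NLRP3 (0.55 ± 0.18, adjusted p = 0.265). DESeq2 also called 0 of 7. Leaving out DMSO replicate 1 gave 2 calls and leaving out DMSO replicate 2 gave 3, while the share over all genes went from 0.463% to 6.32% and 30.9%, so those calls came with many more over all genes. IL1R1 then had an adjusted p of 0.0388 and 0.0194, and NLRP3 of 0.0429 and 4.13e-05.

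**Figure D3:**
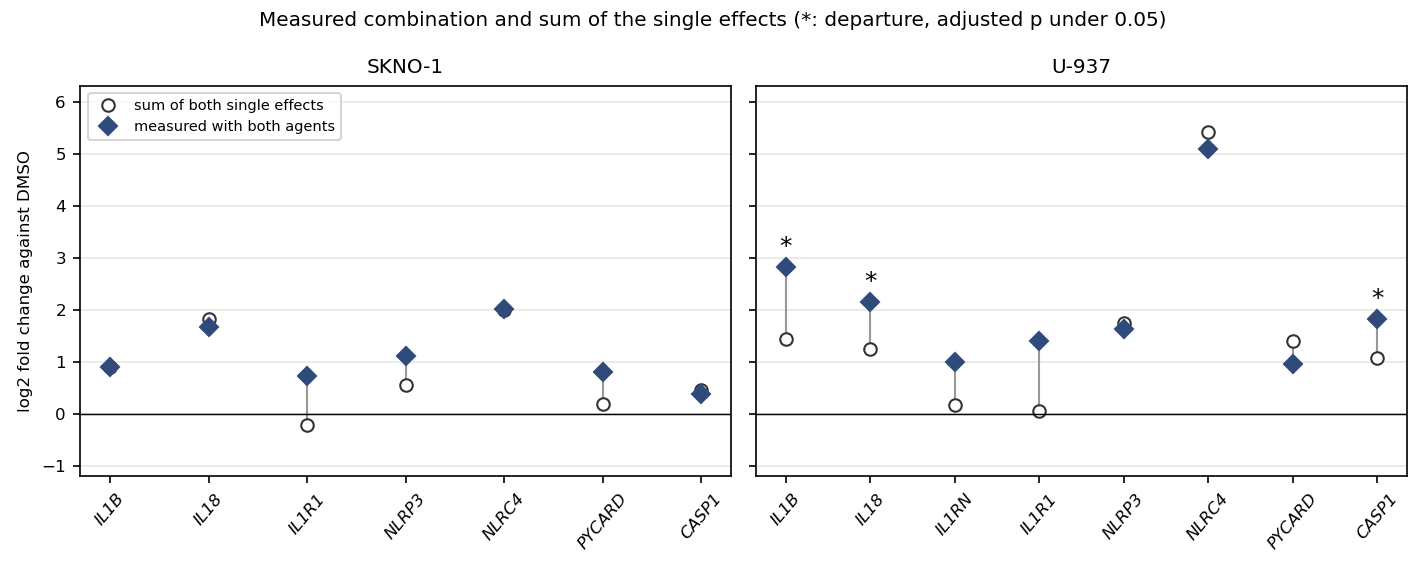
Measured log2 fold change with both agents (diamonds) and the sum of the fold changes with each agent alone (open circles) for the genes tested in SKNO-1 and U-937, with stars where the departure had an adjusted p under 0.05. IL1B, IL18 and CASP1 of U-937 lie above their sums by 1.39, 0.89 and 0.74, and in SKNO-1 no gene is starred.

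The responses of both lines were compared directly in a fit of all 16 libraries. The response to ATRA was higher in U-937 than in SKNO-1 for 5 of 9 genes (5 of 7 without IL1A and IL1RN), where 19.4% of 19872 genes differed, 10.6% higher and 8.81% lower in U-937. The share of higher genes depends on scaling: 2100 were higher and 1750 lower in U-937, against 1726 and 2358 with library totals only. NLRC4 differed most (3.02 ± 0.20, adjusted p = 4.54e-09), followed by IL1R1 (2.56 ± 0.52, adjusted p = 0.00136), NLRP3 (1.23 ± 0.16, adjusted p = 1.46e-05), PYCARD (1.16 ± 0.25, adjusted p = 0.00211) and CASP1 (0.92 ± 0.15, adjusted p = 0.000221). The IL1R1 difference was lost without U-937 ATRA replicate 1 (1.78, adjusted p = 0.119). The response to Corin differed for 1 of 9 genes (1 of 7 without IL1A and IL1RN), where 12.8% differed, 5.28% higher and 7.49% lower (1050 and 1488 genes, against 2152 and 1982 with the GC trend removed): IL1R1 was lower in U-937 by -2.24 ± 0.44 (adjusted p = 0.00193). IL18 was close to the threshold (-0.89 ± 0.30, adjusted p = 0.0588) and passed with library totals only (0.0476), no low-count filter (0.0373), the GC trend removed (0.0436) and without SKNO-1 Corin replicate 2 (0.0106), which made the count 2. The response to both agents was higher in U-937 for 4 of 9 (4 of 7 without IL1A and IL1RN), where 40.6% differed, 17.9% higher and 22.7% lower: NLRC4 (3.11 ± 0.20, adjusted p = 3.41e-10), IL1B (1.97 ± 0.17, adjusted p = 2.84e-08), CASP1 (1.48 ± 0.15, adjusted p = 2.11e-07) and NLRP3 (0.56 ± 0.16, adjusted p = 0.00665). PYCARD (0.20 ± 0.24, adjusted p = 0.574) passed with the GC trend removed (0.48, adjusted p = 0.0302). None of these tests shows the lines to respond alike where the threshold was missed.

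Relatives of the 10 genes were read from 6 lists with 46 genes. In U-937 with both agents 8 of 8 sensor genes tested rose, with a median log2 fold change of 2.23, and 8 of 8 effector and regulator genes rose, with a median of 1.47, beside a median of 0.03 over all genes, of which 65.3% passed, 33.1% higher and 32.2% lower. AIM2, the sensor of cytosolic DNA, had 6 and 6 counts with DMSO and 12 and 16 with ATRA. It had 106 and 95 with Corin and 848 and 741 with both. AIM2 passed the filter only through treated libraries, so its rise (6.99 ± 0.26) was bound to be seen. It is 1 of the 8 sensor genes counted above and is part of their median. MEFV, which encodes pyrin, rose by 4.40 ± 0.21 (adjusted p = 6.64e-15), NLRP1 by 3.99 ± 0.18 (adjusted p = 3.09e-15) and NLRP12 by 2.88 (adjusted p = 2.53e-13). Among the effectors, TXNIP, a binding partner of NLRP3, rose by 3.09 ± 0.14 (adjusted p = 4.74e-12), NINJ1, which ruptures the membrane late in pyroptosis, by 2.03 (adjusted p = 4.06e-11), CARD16 by 1.69 (adjusted p = 1.95e-05) and CASP4, the sensor of intracellular lipopolysaccharide, by 1.59 ± 0.11 (adjusted p = 5.19e-12). Of 9 signalling genes 5 rose and 2 fell, with IRAK2 at 1.28 and MYD88, the adaptor of the IL-1 receptor, at 0.97. Of 7 NF-kB target genes tested 5 rose, among them TNF at 2.75 and CXCL8 at 1.93.

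In SKNO-1 list genes moved in both directions with both agents, where 46.7% of all genes passed, 24.7% higher and 22.0% lower. Of 5 sensor genes tested 2 rose and 1 fell: NLRP1 (3.90 ± 0.21, adjusted p = 8.2e-06) and PSTPIP1 (2.29) rose and CARD8 (-0.59) fell. Of 8 effector and regulator genes 5 rose and 1 fell, with NINJ1 at 1.67, P2RX7 at 1.20 and GSDMD at 1.08. Of 9 signalling genes 1 rose and 4 fell, with IRAK2 at 1.91, NFKB1 at -0.67 and MYD88 at -0.63. Of 6 NF-kB target genes tested 3 rose and 2 fell, with CXCL8 at 1.29 and PTGS2 at -1.45. Among these 6, CCL2 passed the low-count filter only through the groups with ATRA. MYD88 thus rose in U-937 and fell in SKNO-1.

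**Figure D4:**
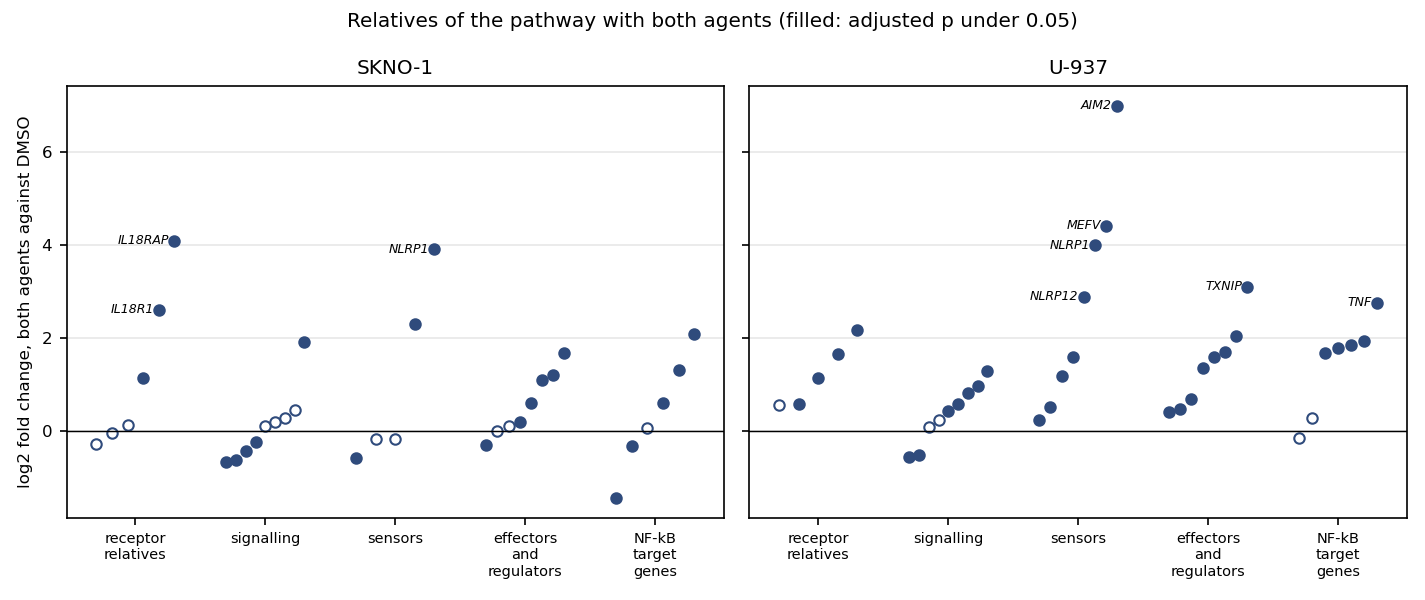
Log2 fold change with both agents against DMSO for each tested gene of 5 lists in SKNO-1 and U-937, with filled points where the adjusted p was under 0.05 and names where the change exceeded 2.5. All sensor and effector points of U-937 are filled and above 0, with AIM2 at 6.99, and in SKNO-1 the points lie on both sides of 0. The ligand relatives are not drawn, since 1 of 5 in SKNO-1 and 0 of 5 in U-937 were tested.

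Receptor genes beside IL1R1 on chromosome 2 were on the receptor list. In SKNO-1, IL18R1, the binding chain of the IL-18 receptor, had 58 and 69 counts with DMSO, 13 and 8 with ATRA, 760 and 769 with Corin and 300 and 394 with both. Its log2 fold change was -2.53 ± 0.28 with ATRA (adjusted p = 0.00131) and 3.66 ± 0.19 with Corin (adjusted p = 1.22e-05). IL18RAP, the accessory chain, had 1 and 5 counts with DMSO, 0 and 0 with ATRA, 161 and 183 with Corin and 52 and 43 with both. Its log2 fold change was 5.86 ± 0.42 with Corin, and its ATRA value did not pass (adjusted p = 0.148). IL18RAP passed the low-count filter only through the groups with Corin, so its rise there was bound to be seen. IL1RL1, the IL-33 receptor, was named after its values were seen. It had 15 and 12 counts with DMSO, 3 and 2 with ATRA, 94 and 106 with Corin and 8 and 12 with both, and changed by -2.33 ± 0.49 with ATRA (adjusted p = 0.0238) and 2.94 ± 0.29 with Corin (adjusted p = 0.000193). IL1RL1 and IL18R1 overlap in the annotation, so their counts are uncertain. In U-937, IL18R1 had mean CPM of 19.5 in the DMSO group, 8.78 in the ATRA group, 33.4 in the Corin group and 60.9 in the combination group, and exceeded the sum of the single effects by 2.02 ± 0.16 (adjusted p = 1.33e-09). Of the receptor list, Corin raised 3 of 6 genes tested in SKNO-1 (37.9% of all genes passed, 20.5% higher) and 3 of 5 in U-937 (12.9%, 8.55% higher). The 3 in SKNO-1 include IL18RAP, whose rise was bound to be seen, so that count cannot be set against the share over all genes. ATRA lowered 2 of 6 and raised 0 in SKNO-1 (6.76%, 3.79% lower), and lowered 1 of 5 and raised 2 in U-937 (41.8%, 20.1% lower).

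**Figure D5:**
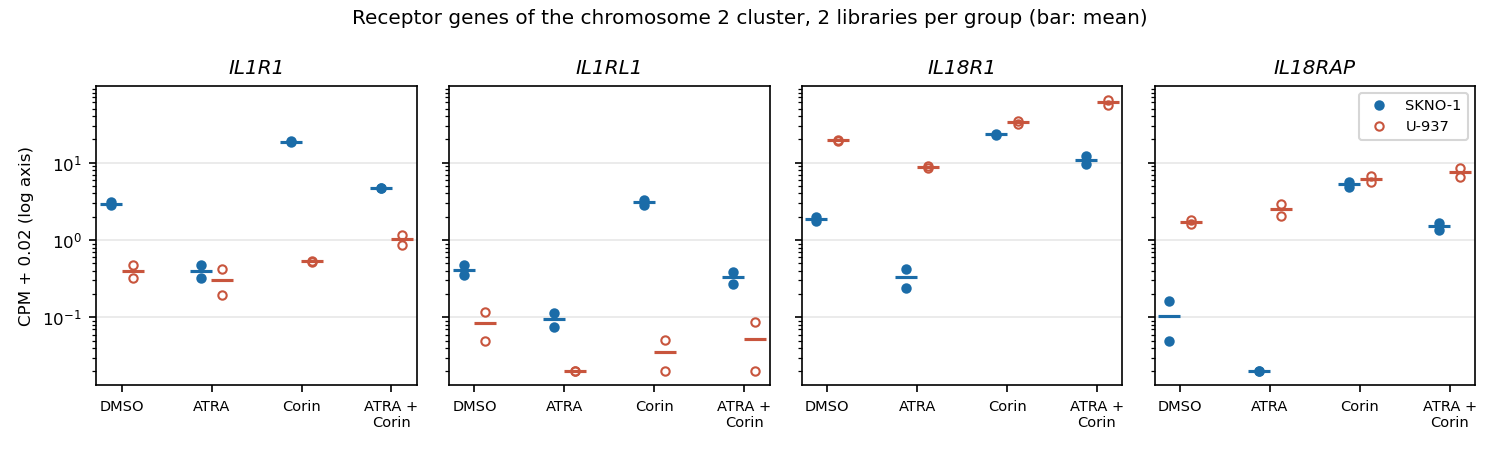
Level of 4 receptor genes of the chromosome 2 cluster in every library, as CPM plus 0.02 on a log axis, by treatment. Points are filled for SKNO-1 and open for U-937, with a bar at the mean of 2 libraries. IL1R2 and IL1RL2 of that cluster are not drawn. In SKNO-1 each gene drawn is lowest with ATRA and highest with Corin, and IL1R1 runs from 0.383 to 18.5 CPM.

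Markers of monocytes and macrophages, and of granulocyte precursors, moved beside these genes. The summed level of 6 markers (CD14, LYZ, CSF1R, ITGAM, CD68 and FCGR1A) in U-937 was 262 and 288 CPM with DMSO, 673 and 691 with ATRA, 2434 and 2037 with Corin and 3198 and 3456 with both. LYZ, the lysozyme gene, made up most of that sum in 3 of the 4 groups, with mean CPM of 222 in the DMSO group, 272 in the ATRA group, 2076 in the Corin group and 2562 in the combination group. CD68 had the opposite order of the single agents, at 265 CPM with ATRA and 78.4 with Corin, as did FCGR1A, at 39.9 and 18.9. In SKNO-1 the summed level of the 6 markers was 104 and 105 CPM with DMSO and 86.9 and 84.4 with ATRA. It was 481 and 449 with Corin and 621 and 609 with both. LYZ made up most of that sum too, in every group. From DMSO to ATRA there, mean CPM fell for LYZ (65.3 to 48.3) and FCGR1A (32.6 to 20.8). Mean CPM rose for CD68 (5.999 to 14.5), ITGAM (0.394 to 0.936) and CSF1R (0.348 to 1.16), and CD14 had 0 counts in both groups. The summed level of 4 granulocyte precursor markers (MPO, ELANE, PRTN3 and AZU1) in U-937 was 165 and 112 CPM with DMSO and 270 and 312 with ATRA. It was 136 and 118 with Corin and 83.2 and 74.3 with both. From DMSO to both agents in U-937, mean CPM fell for ELANE (63.2 to 21.7) and PRTN3 (40.6 to 18.0). AZU1 did not fall (34.2 to 38.9), and MPO was near the floor (0.191 and 0.154). In SKNO-1 these 4 genes summed to 3861 and 2839 CPM with DMSO and 3742 and 4095 with ATRA. Their sum was 2013 and 1882 with Corin and 2510 and 2622 with both. MPO made up most of it in every group. From DMSO to both agents there, mean CPM fell for MPO (3296 to 2456) and ELANE (36.4 to 20.2). Mean CPM rose for PRTN3 (8.34 to 67.1) and AZU1 (9.57 to 22.3). CD14, a defining marker of mature monocytes, had at most 8 counts in any U-937 library and rose in SKNO-1 from 0 and 0 with DMSO to 26 and 27 with both agents. The integrin gene ITGAM of U-937 had the order of NLRC4, with mean CPM of 4.54 in the DMSO group, 100 in the ATRA group, 52.9 in the Corin group and 360 in the combination group. The part of such a shift in the values of the 10 genes was not tested.

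For 8 of the genes, 1 or 2 genes of most similar pattern are given, found by the Pearson correlation of log2(CPM + 1) over the 16 libraries among 10510 genes. The points share libraries, and the lines, so each r also holds the difference between the lines. NLRC4 was most like MVP (r = 0.987) and TK2 (0.978), IL1B like ERV3-1 (0.986) and PACSIN2 (0.985), and IL18 like KIAA0319L (0.996) and SULT1A1 (0.996). IL1RN was most like ART3 (0.990) and TDRD9 (0.989), and IL1R1 like TCN1 (0.982) and GCNT1 (0.968). NLRP3 was most like GM2A (0.990) and SMOX (0.990), PYCARD like LST1 (0.994) and WAS (0.991), and CASP1 like P2RY13 (0.983).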

How the data were processed

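RNA-seq of 16 libraries (2 lines, 4 treatments, 2 libraries each) was used as the authors deposited it: RSEM estimated counts and TPM per gene and library. Per the submitters' processing notes, Trimmomatic, STAR, RSEM, deepTools and DESeq2 were used with hg38. Versions, the annotation release and the use of strand in counting are not given in the sources used here. The authors' deposited comparison tables hold log2 fold changes and adjusted p-values, per the file headers. The labels name a stranded total RNA kit, paired-end reads and an ERCC spike-in, but file names are marked SE, and 0 spike-in rows were found, so RNA per cell was not measured.

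Rounding of the estimated counts to integers altered each library total by at most 42.03 counts. Fractions (20.4% of positive values) arise where RSEM splits a read among similar genes. Genes were filtered by filterByExpr, scaled by TMM and tested with edgeR 4.0.16 (R 4.3.3, robust quasi-likelihood F test, Benjamini-Hochberg adjustment over all genes), with no replicate block in the 8 libraries of a line (4 residual degrees of freedom) or in all 16 libraries for contrasts between the lines. The additivity contrast subtracts both single log2 effects from the combined one. Each SE was obtained as the unshrunken log2 fold change over the square root of F. With 2 libraries a group an exact permutation test of 1 gene cannot go below p = 0.333, so the p-values printed rest on edgeR's pooling of variance information over genes. The scripts were tested on simulated data. Alternatives were DESeq2 1.42.0 with its size factors, library totals only, no low-count filter, a replicate block, removal of the GC trend, block and GC together, and leaving out each library.

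Replicate pairs differed beyond sampling noise (chi-square per degree of freedom 3.46 to 96.8), so each library counted as 1 replicate. Intervals and floors cover counting error only, since reads carry no molecular identifiers. GC content and positions come from GENCODE 44, matched by identifier for 60261 of 60603 genes. The members, the gene lists and the rules were chosen with earlier results of these data known. All 10 genes are described whatever their values. Of each list at most 4 genes are named, by the size of their change with both agents, if called and averaging 1 CPM or more in the line. The genes of most similar pattern were sought for members with at least 5 CPM in a line, among genes with at least 5 CPM over all libraries. A marker gene and a gene of similar pattern are not reported here.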

Additional observations from a re-analysis of the deposited data

Results flagged for a closer look

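A test of the difference between the lines passed for 10 results. Positive values mean a higher response in U-937 than in SKNO-1, on the log2 scale. For ATRA these were NLRC4 at 3.02 (higher with ATRA in 2 of 2 libraries of each line), IL1R1 at 2.56, NLRP3 at 1.23, PYCARD at 1.16 and CASP1 at 0.92. For IL1R1 the difference comes with a fall in SKNO-1 from 93 and 108 to 15 and 11 counts, and with 10 and 14 against 15 and 6 counts in U-937. For Corin the result was IL1R1 at -2.24, which rose in SKNO-1 to 611 and 608 counts and was at 20 and 16 counts in U-937. For both agents these were NLRC4 at 3.11, IL1B at 1.97, CASP1 at 1.48 and NLRP3 at 0.56. All 4 genes were higher with both agents in 2 of 2 libraries of each line. The medium differed between the lines (GM-CSF with SKNO-1), and its part was not tested.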

How the results depend on the processing

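The counts of genes called stayed within 1.5 times their value in 90 of 96 comparisons with an alternative that kept every library. The other 6 were both agents against Corin in SKNO-1 with 5 in place of 3 (GC trend removed), the departure from additivity in SKNO-1 with 1 in place of 0 (no low-count filter, and GC trend removed), and the Corin response between the lines with 2 in place of 1 (library totals only, no low-count filter, and GC trend removed). The cause was not tested. Leaving out each library gave in SKNO-1 1 to 3 genes for ATRA, 3 to 6 for Corin, 5 to 7 for both against DMSO, 4 to 6 for both against ATRA, 1 to 5 for both against Corin and 0 to 3 for additivity. In U-937 it gave 6 to 7 for ATRA, 4 to 6 for Corin, 8 to 9 for both against DMSO, 6 to 8 for both against ATRA, 8 in each case for both against Corin and 3 to 5 for additivity. Between the lines it gave 7 to 8 for DMSO, 4 to 6 for ATRA, 1 to 2 for Corin and 4 in each case for both agents. The share of all genes that passed also moved between these fits, in both lines and between the lines. These ranges therefore cannot be read as a property of the genes followed here alone. A group left with 1 library is assumed to vary like the others.

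Directions turned only for values that had not passed the test. Leaving out each library gave -0.073 to 0.027 for CASP1 with Corin in U-937 (0.048 when GC trends were taken out, 0.047 with the replicate block as well), -0.089 to 0.26 for NLRP3 with ATRA in SKNO-1, -0.061 to 0.56 for PYCARD with Corin in SKNO-1, -0.24 to 0.037 for the additivity of NLRP3 in U-937 and -0.14 to 0.48 for PYCARD with both agents between the lines. With library totals only, the median of all genes moved from 0.03 to -0.09 for both agents in U-937, from 0.02 to -0.11 for both against Corin there, from -0.01 to 0.15 between the DMSO groups and from -0.11 to -0.26 for the combination between the lines.

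Replicate numbers did not pair the libraries: same-numbered deviations correlated from -0.47 to 0.23 over 6 pairs in SKNO-1 and from -0.42 to 0.40 over 6 pairs in U-937. A replicate block left every count of the 10 genes within 1.5 times, and moved the count over all genes by more than that for both against Corin (1822 to 1066) and additivity (81 to 20) in SKNO-1. Depth limits IL1A and IL1R2 in both lines and IL1RN in SKNO-1, each with counts too low for a test of every contrast.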
